A study of Mus musculus with 8 samples.

Results

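The 36 genes described here are immediate early genes (23 members) and heat shock genes (13 members), measured in single mature oligodendrocytes of mouse brain. They were listed by name, as families whose RNA is known to change when tissue is taken apart into cells, without a limit on any measured value. All 36 were found among the 18833 genes of the deposited matrix. Hippocampus and cortex were each taken from 2 wild-type mice (Fire+/+, mouse 1 and mouse 4) and 2 knockout mice (FireΔ/Δ, mouse 3 and mouse 6), which made 8 libraries. Both FireΔ/Δ alleles lack an enhancer inside an intron of Csf1r, and such mice are known to lack microglia in the brain. The mice, labelled female, had a mixed CBA:C57Bl6J background, and the controls were bred from FireΔ/+ parents. The age was 1 month and 18 days for mice 1 and 3, against 1 month and 16 days for mice 4 and 6. After cervical dislocation the tissue was minced and digested with enzymes in buffers with trehalose and 30 µM actinomycin D, a blocker of transcription that the authors used against changes made by dissociation. Cells were sorted on scatter, against debris, erythrocytes and doublets, and on dyes, against dead cells, and the cortex samples were the left hemisphere left over without its hippocampus. No library was made from tissue that had not been dissociated, so the part of dissociation in any level below was not tested.

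Immediate early genes are switched on within minutes of a stimulus, without new protein synthesis, and most encode transcription factors or brakes on the kinase signals that switched them on. Heat shock genes encode chaperones, which keep proteins folded, and the inducible ones are driven by the heat shock factor HSF1 when unfolded protein builds up. Enzymatic digestion of brain tissue is known to raise genes of both kinds, and oligodendrocytes are also known to hold much of the small heat shock protein Cryab without any stress.

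The knockout was checked on Csf1r, the receptor whose enhancer was deleted. In wild-type mice it had 6.96 and 5.16 CPM in the hippocampus of mice 1 and 4, and 5.39 and 11.4 in their cortex (CPM is the count of UMIs, tags that each count 1 captured RNA molecule, in 1,000,000 UMIs of the library). In knockout mice it had 0.108 and 0.1403 in the hippocampus of mice 3 and 6, from 3 UMIs each, 0.0679 in the cortex of mouse 3, from 1 UMI, and 0 in the cortex of mouse 6, where a count of 0 allows up to 0.250. Each library thus matched its labelled genotype.

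The libraries held 2373 and 1047 cells from the wild-type hippocampus of mice 1 and 4, 1342 and 1123 from their cortex, 2784 and 1934 from the knockout hippocampus of mice 3 and 6, and 1074 and 904 from their cortex. In the same order their depth was 23275344, 13940995, 16889292, 12766885, 27848236, 21384089, 14736805 and 12015518 UMIs. Of 12560 distinct cell barcodes, 21 occurred in 2 libraries. The authors merged the cells into 4 clusters, Oligo1 to Oligo4. Oligo1 took 30.9% and 23.2% of the knockout hippocampus cells of mice 3 and 6 and 13.7% and 10.8% of their cortex cells, but 0 cells in 3 wild-type libraries and 6 cells in the hippocampus of mouse 4. The oligodendrocyte markers Mag (2660 to 3451 CPM), Cnp (4234 to 5191) and Mog (1827 to 2002) were present in each library. The 4 batches named in the deposited cell table each held the wild-type and the knockout library of 1 tissue. Batches 3 and 4 were the hippocampus and the cortex of mice 1 and 3, and batches 5 and 6 were those of mice 4 and 6. Batch, mouse pair and age therefore cannot be told apart, whereas the genotypes can be compared inside every batch. The study calls batch 6 poorer, and its libraries had the highest median share of mitochondrial UMIs, 6.29% and 6.23%, against 4.54% to 5.46% in the other 6.

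The members ranged from genes near the detection limit to some of the most abundant in the cells. As means over the 8 libraries, the highest immediate early levels were those of Jund (611 CPM), Jun (209) and Klf6 (53.4), and the other 20 immediate early members had 15.8 or less. Among heat shock members, Cryab had 4509 CPM and was the gene with rank 17 of all 18833 by mean log2 value, followed by Hsp90ab1 (2592), Hsp90aa1 (2210) and Hspa8 (1287). At the other end stood Hspb1 (0.792), another small heat shock protein, and the lowest immediate early member was Egr2 (0.213). The assay counts the ends of transcripts, so these levels carry no correction for gene length. Of the 36 members, 20 had a UMI in at least 5% of cells and were tested: 8 immediate early genes (Jun, Jund, Dusp1, Klf6, Nr4a1, Btg1, Btg2 and Zfp36) and 12 heat shock genes, all except Hspb1. Fos, at 4.15%, was the member closest below that limit, and Hspa1b, at 5.66%, the member closest above it.

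**Figure D1:**
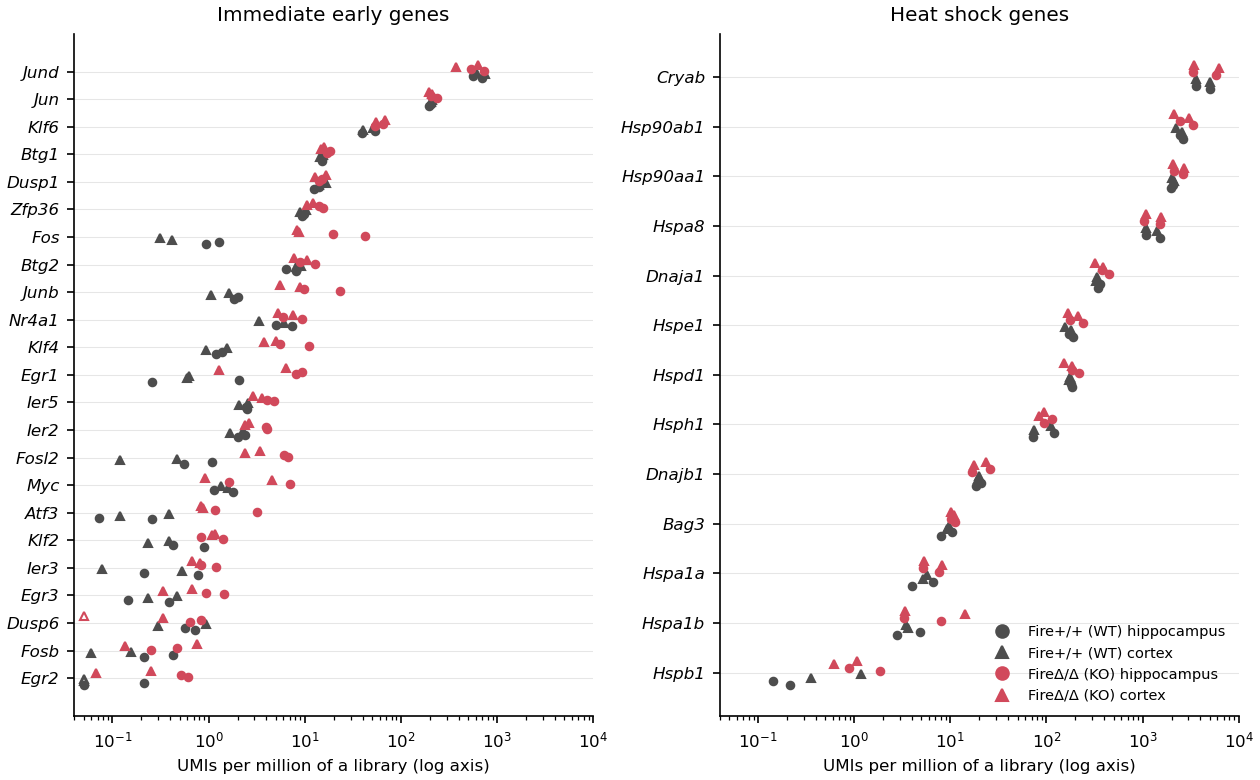
Level of each member in each of the 8 libraries, in CPM on a log axis, with immediate early genes on the left and heat shock genes on the right. Circles are hippocampus and triangles cortex, grey is wild type and red is knockout, and an open symbol at the left edge stands for a count of 0. The red symbols of Fos (8.41 to 42.7) lie apart from the grey ones (0.313 to 1.29), whereas the heat shock genes of high level overlap.

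AP-1, the transcription factor made of Fos and Jun family proteins, was covered by 6 members. Jund, the subunit that cells carry at rest, had mean log2 values of 2.60 and 2.34 in the wild-type hippocampus of mice 1 and 4 and 2.70 and 2.45 in their cortex. In the knockout its values were 2.64 and 2.24 in the hippocampus of mice 3 and 6, 1.90 in the cortex of mouse 3 and 2.49 in that of mouse 6. The cortex library of mouse 3 stood below the other 7, and 0.80 below the wild-type library of its batch (-0.80, knockout minus wild type), while the differences in batches 3, 5 and 6 were 0.04, -0.11 and 0.04. That low level was seen in each of its clusters, with 384, 355, 390 and 324 CPM in Oligo1 to Oligo4, where the other 7 libraries had at least 505.7. The cortex library of mouse 3 had 1074 cells and a median depth of 13725.5 UMIs per cell, the highest of the 8, and what set its Jund apart was not tested.

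Jun was close to even, with 1.17, 1.23, 1.23 and 1.25 in the wild-type libraries (hippocampus of mice 1 and 4, then cortex) and 1.31, 1.16, 1.28 and 1.19 in the knockout libraries (hippocampus of mice 3 and 6, then cortex). The genotypes overlapped, and the knockout was higher in both batches of mice 1 and 3 and lower in both batches of mice 4 and 6. Of the other 4 subunits, Fos, Junb and Fosl2 did not overlap between genotypes and Fosb did. Fos had 0.945 and 1.29 CPM in the wild-type hippocampus of mice 1 and 4 and 0.414 and 0.313 in their cortex, from 22, 18, 7 and 4 UMIs. In the knockout it had 42.7 and 19.8 in the hippocampus of mice 3 and 6 and 8.62 and 8.41 in their cortex, with 1188 and 424 UMIs in the hippocampus. The genotypes did not overlap, and within each genotype both hippocampus libraries were above both cortex libraries. Junb had 1.07 to 2.01 CPM in the wild type and 5.58 to 23.3 in the knockout, and Fosl2 had 0.118 to 1.08 and 2.38 to 6.72, again without overlap. Fosb stayed between 0.0592 and 0.749 in all 8 libraries and overlapped.

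The share of cells with a Fos UMI showed the same split when every cell was thinned to 5000 UMIs, which removes differences in depth. It was 0.253% and 0.287% in the wild-type hippocampus of mice 1 and 4, 0.149% and 0.178% in their cortex, 10.2% and 4.55% in the knockout hippocampus of mice 3 and 6, and 2.51% and 2.88% in their cortex. With all UMIs the shares were 0.267% to 0.764% in wild-type and 4.20% to 14.2% in knockout libraries. The matrix holds oligodendrocytes alone, so no other cell type could give the share that free RNA alone would make. Fos RNA was concentrated in few cells: those with at least 5 UMIs numbered 66, 28, 8 and 4 in the knockout libraries (hippocampus of mice 3 and 6, then cortex) and held 51.4%, 59.2%, 52.0% and 48.5% of its UMIs. Cells with Fos also tended to hold Junb. After thinning, Junb was found in 36.5%, 27.3%, 25.9% and 11.5% of the Fos-positive cells of those libraries and in 3.601%, 2.22%, 2.20% and 1.94% of the others. The Fos-positive cells with Junb were 104 of 285, 24 of 88, 7 of 27 and 3 of 26. This is a description in which cells of 1 library are not replicates. It pools all clusters, and both genes were highest in Oligo1, so the part of the cluster in it was not tested.

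The other inducible transcription factors followed Fos in part. Egr1, a zinc-finger factor used as a mark of recent activity, had 0.258 and 2.08 CPM in the wild-type hippocampus of mice 1 and 4, 0.592 and 0.627 in their cortex, 8.04 and 9.31 in the knockout hippocampus of mice 3 and 6, and 1.29 and 6.33 in their cortex. On that scale the knockout cortex of mouse 3 lay below the wild-type hippocampus of mouse 4, although on the mean log2 scale, where 1 cell with many UMIs weighs less, the genotypes did not overlap. Atf3, a factor induced by many stresses, had 0.258, 0.0717, 0.118 and 0.392 in the wild type (hippocampus of mice 1 and 4, then cortex) and 3.16, 1.17, 0.882 and 0.832 in the knockout (hippocampus of mice 3 and 6, then cortex). It did not overlap either, but rested on 1 to 6 UMIs in each wild-type library. Klf4, a Krüppel-like factor, had 0.947 to 1.57 in wild-type and 3.80 to 11.0 in knockout libraries. Its relative Klf2 had 0.237 to 0.902 and 0.842 to 1.40, with a small overlap on this scale and none in mean log2. Klf6, the Krüppel-like factor of highest level, had mean log2 values of 0.29, 0.40, 0.31 and 0.39 in the wild type and 0.38, 0.45, 0.42 and 0.50 in the knockout, in the same order of libraries. These overlapped between genotypes, but the knockout was higher by 0.09, 0.12, 0.05 and 0.11 inside batches 3, 4, 5 and 6. Myc, a factor that drives growth, was high in the knockout libraries of mouse 3 (7.00 and 4.55 CPM in hippocampus and cortex) and not in those of mouse 6 (1.64 and 0.915), against 1.15 to 1.80 in the wild type.

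Egr2 and Egr3, relatives of Egr1, were counted in at most 17 and 40 UMIs in any library, and Egr2 had 0 in both wild-type cortex libraries, which allows up to 0.178 and 0.235 CPM. The early response genes Ier2, Ier3 and Ier5 had at most 4.74 CPM, and Ier5 alone of the 3 did not overlap in mean log2 (2.07 to 2.58 CPM in wild-type and 2.91 to 4.74 in knockout libraries). Dusp1, a phosphatase that turns off stress kinases, had 12.4 to 16.8 CPM with the genotypes mixed, and Dusp6, which acts on ERK, had 0 to 0.940, with 0 in the knockout cortex of mouse 6 (up to 0.250). Btg1 and Btg2, which slow cell division, had 14.3 to 18.3 and 6.46 to 12.7, and Nr4a1, an orphan nuclear receptor, had 3.37 to 9.48. Zfp36, which destroys the RNA of inflammatory genes, had 9.41, 9.83, 8.9998 and 10.3 in the wild type (hippocampus of mice 1 and 4, then cortex) and 10.7 to 15.4 in the knockout, without overlap.

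Counted over the list, 15 of the 23 immediate early members had a higher mean log2 value in the knockout in all 4 batches, against 10.3% of all genes in the matrix, and none was lower in all 4. All 4 knockout libraries lay above all 4 wild-type libraries for 9 of the 23 (Fos, Fosl2, Junb, Egr1, Ier5, Atf3, Klf2, Klf4 and Zfp36), against 2.39% of all genes in the matrix. Most of these 9 have few UMIs, and among the 8 members above the detection limit the counts were smaller: 3 were higher in all 4 batches (Klf6, Nr4a1 and Zfp36; 13.4% of all genes tested) and 1, Zfp36, did not overlap (2.78%). Of the 13 heat shock members, 1, Hsp90aa1, was higher in the knockout in all 4 batches, and 0 lay without overlap above the wild type.

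Cluster labels were drawn by the authors from variable genes of these same cells, and which members were among those genes is not known here, so levels by cluster are a description and were not tested. Averaged over the 4 knockout libraries, Fos had 63.1 CPM in Oligo1 and 6.86, 3.45 and 16.2 in Oligo2, Oligo3 and Oligo4. Oligo1 held 86.5% and 69.6% of the Fos UMIs of the knockout hippocampus of mice 3 and 6, 82.7% in the cortex of mouse 3 and 35.6% in that of mouse 6. Its cells had the highest CPM of the 4 clusters in all 4 knockout libraries for 7 of 23 immediate early members (Fos, Junb, Atf3, Klf4, Klf6, Zfp36 and Myc) and for 0 of 13 heat shock members, against 3.33% of all genes in the matrix. Among members tested these were 2 of 8 (Klf6 and Zfp36) and 0 of 12, against 5.39% of all genes tested. In the same knockout libraries Junb averaged 37.0 CPM in Oligo1 and 3.63, 3.62 and 14.5 in Oligo2 to Oligo4, and Klf4 averaged 18.9 against 2.57, 2.14 and 8.02. The wild type had too few Oligo1 cells (6 in all) to be described, so there the same clusters cannot be compared.

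The split between genotypes was smaller, but not absent, once Oligo1 was left out. In Oligo2 to Oligo4 together, Fos had 0.945 and 1.298 CPM in the wild-type hippocampus of mice 1 and 4 and 0.414 and 0.313 in their cortex, against 8.44 and 7.89 in the knockout hippocampus of mice 3 and 6 and 1.73 and 6.09 in their cortex. The knockout values still lay above the wild-type ones, and the lowest of them, in the cortex of mouse 3, came from 22 UMIs. Within these clusters 4 of 23 immediate early members (Fos, Junb, Ier5 and Klf4) did not overlap between genotypes, against 1.5% of all genes in the matrix, and 13 were higher in the knockout in all 4 batches, against 8.2%. Of the 8 tested, 0 did not overlap (1.48% of all genes tested) and 3 were higher in all 4 batches (10.3%). These 3 were Nr4a1 and Zfp36, as over all cells, and Btg1, while Klf6 differed by -0.0082 in batch 5. Dusp1 was lower in the knockout in all 4 batches within these clusters, by -0.0030, -0.018, -0.0049 and -0.022.

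Some members followed the clusters in both genotypes. Bag3, which hands clients of the Hsp70 chaperones to autophagy, averaged 19.9 CPM in Oligo2, 7.52 in Oligo3 and 2.28 in Oligo4, and was higher in Oligo2 than in Oligo3 in all 8 libraries and lower in Oligo4 than in Oligo3 in all 8. Nr4a1 had 0.670, 7.47 and 9.12, lower in Oligo2 than in Oligo3 in all 8 libraries and lower in Oligo3 than in Oligo4 in 6, and rested on 2 to 4 UMIs in the Oligo2 cells of each library. Jun was higher in each of these clusters than in the one before, with 167, 211 and 255 CPM, and in that order in all 8 libraries. In all, 6 of 23 immediate early members (Jun, Atf3, Dusp1, Nr4a1, Btg1 and Btg2) and 5 of 13 heat shock members (Hsp90aa1, Hsp90ab1, Hspe1, Hspd1 and Cryab) were lower in Oligo2 than in Oligo3 in all 8 libraries, against 6.24% of all genes in the matrix. Among members tested these were 5 of 8 (all but Atf3) and 5 of 12, against 10.1% of all genes tested. In the other direction, 1 immediate early member (Klf6) and 2 heat shock members (Dnaja1 and Bag3) were higher in all 8, against 8.89% of all genes in the matrix and 16.2% of all genes tested.

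**Figure D2:**
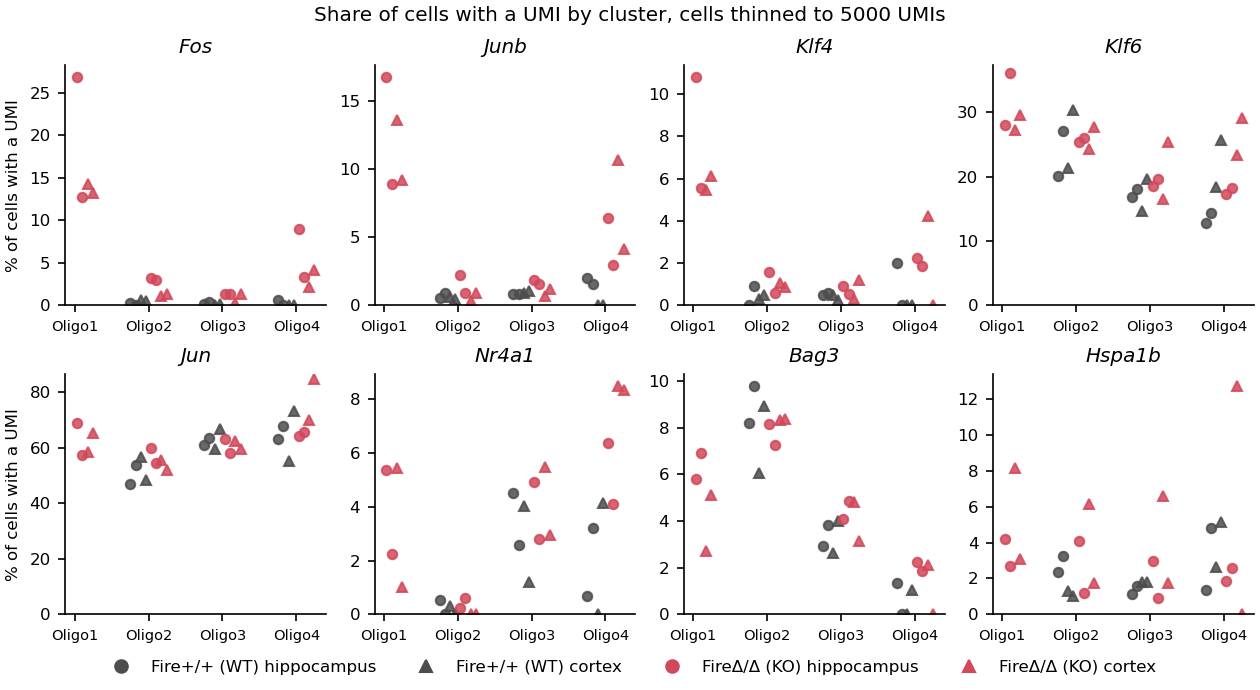
Share of cells with a UMI, in percent after thinning each cell to 5000 UMIs, for 8 members (panels) in the authors' clusters Oligo1 to Oligo4 (horizontal axis). Each symbol is 1 library with at least 20 cells in the cluster (circles hippocampus, triangles cortex, grey wild type, red knockout). Fos reached 12.7% to 26.9% in the Oligo1 cells of the knockout libraries, and Bag3 was highest in Oligo2 in all 8 libraries.

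The heat shock members together ordered the libraries by mouse pair, which batch and age also follow. Summed over the 13 genes, they made up 120.2 and 100.7 of every 10,000 UMIs in the wild-type hippocampus of mice 1 and 4 and 118.9 and 97.1 in their cortex, 142.6 and 98.7 in the knockout hippocampus of mice 3 and 6, and 144.7 and 94.6 in their cortex. Both libraries of mouse 3 were highest, both of mouse 1 came next, and all 4 of mice 4 and 6 were lower, whatever the genotype or tissue. Cryab made up 34.2% to 43.3% of the sum. The 23 immediate early genes summed to 7.39 to 12.04 of every 10,000 UMIs, of which Jund made up 50.9% to 70.7%.

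Cryab, the small heat shock protein, had mean log2 values of 5.31 and 4.83 in the wild-type hippocampus of mice 1 and 4, 5.29 and 4.84 in their cortex, 5.48 and 4.69 in the knockout hippocampus of mice 3 and 6, and 5.63 and 4.75 in their cortex. Each library of mice 1 and 3 lay above each of mice 4 and 6, by more than the tissues of any mouse differed. Hspa8, the Hsp70 chaperone made at rest, had 3.63, 3.18, 3.52 and 3.19 in the wild type and 3.64, 3.08, 3.69 and 3.19 in the knockout (hippocampus of both mice, then cortex), with the same separation. Hsp90ab1, the Hsp90 chaperone made at rest, had 4.39, 4.26, 4.35 and 4.14 in the wild type and 4.71, 4.21, 4.62 and 4.06 in the knockout. Hsp90aa1, its inducible partner, had 4.00, 4.04, 4.08 and 4.01 in the wild type and 4.38, 4.05, 4.43 and 4.02 in the knockout, so that the mouse 3 libraries alone stood out, by 0.38 and 0.35 inside batches 3 and 4.

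**Figure D3:**
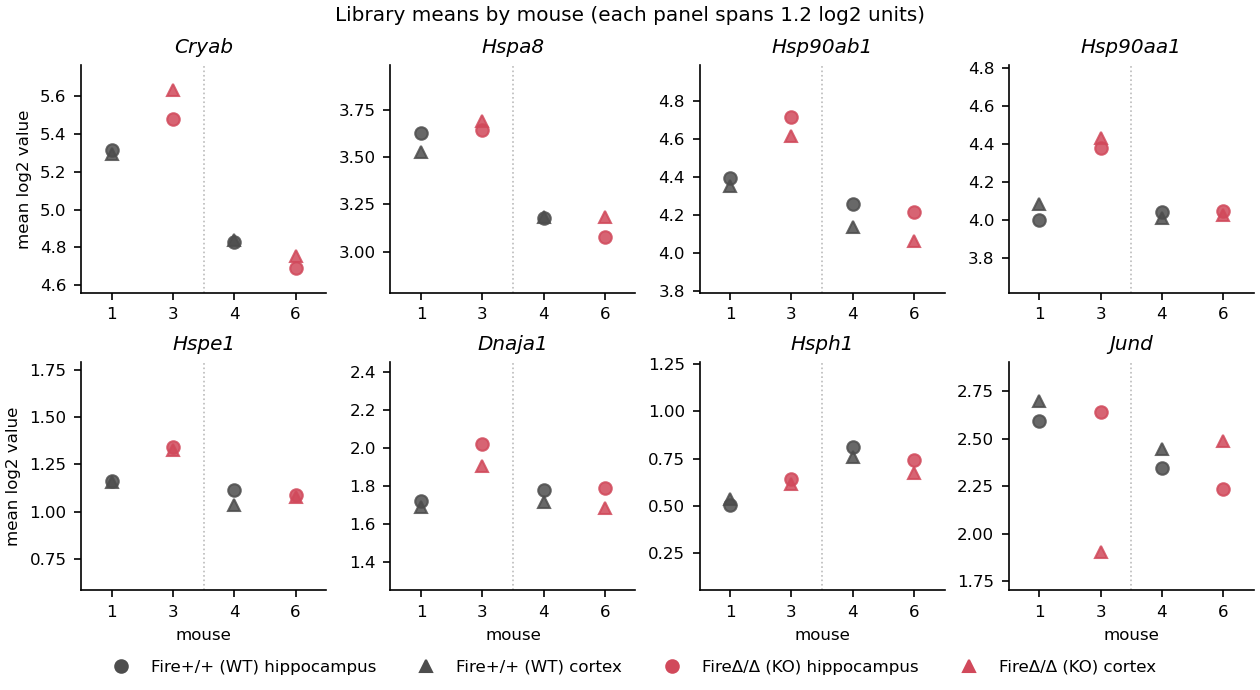
Mean log2 value of 8 members in each library (vertical axis) by mouse (horizontal axis), each panel spanning the same 1.2 log2 units. Circles are hippocampus and triangles cortex, grey is wild type and red is knockout, and the dotted line parts mice 1 and 3 from mice 4 and 6. Cryab lies between 5.29 and 5.63 left of the line and between 4.69 and 4.84 right of it, and Jund is lowest in the cortex of mouse 3 (1.90).

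The strictly inducible Hsp70 genes were rare. Hspa1a had 4.04 and 6.53 CPM in the wild-type hippocampus of mice 1 and 4, 5.21 and 5.72 in their cortex, 7.58 and 5.24 in the knockout hippocampus of mice 3 and 6, and 8.14 and 5.33 in their cortex. Its neighbour Hspa1b had 2.79, 4.88, 3.61 and 3.45 in the wild type and 7.94, 3.27, 14.3 and 3.41 in the knockout, in the same order. Both genes were highest in the libraries of mouse 3 and overlapped otherwise. Their transcripts are nearly the same, so how the UMIs were split between them is uncertain. After thinning, 6.98% of the cells of the knockout cortex of mouse 3 held an Hspa1b UMI, against 1.35% to 3.41% in the other 7 libraries. Dnajb1, a J-domain partner of Hsp70 that HSF1 also induces, went against them, with 18.3, 20.7, 19.4 and 19.8 CPM in the wild type and 16.7, 26.0, 17.6 and 23.4 in the knockout, lowest in the libraries of mouse 3. Hsph1, which reloads Hsp70 with nucleotide, was also lower in mice 1 and 3 (72.5 to 94.5 CPM) than in mice 4 and 6 (94.96 to 119). Dnaja1, another J-domain protein (322 to 450), the mitochondrial chaperonin pair Hspd1 (154 to 218) and Hspe1 (156 to 238), and Bag3 (7.95 to 11.2) were each highest in mean log2 in the libraries of mouse 3.

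Promoter letters were searched for motifs, which the choice of members did not use. RefSeq windows of 300 bases (GRCm38.p6, from 250 bases before to 50 after the gene's start) were found for 28 of the 36 members, and Egr1, Egr3, Ier2, Myc, Hspa8, Hsp90aa1, Hsp90ab1 and Cryab were not in the table. A heat shock element was searched as GAANNTTC or TTCNNGAA, each of which reads the same on both strands, and these may overlap each other. It was in the windows of 8 of 9 heat shock members (Hspa1a, Hspa1b, Hspb1, Hsph1, Dnaja1, Hspe1, Hspd1 and Bag3), in 3 of 19 immediate early members (Fosl2, Jun and Egr2), and in 17.0% of 27018 genes. The heat shock element was thus common among the heat shock members with a window, and no more so among immediate early members than among all genes. Hspe1 and Hspd1 start next to each other and their windows share 285 bases, so they count as 1 sequence rather than a pair. Among other motifs on both strands, the cyclic AMP element TGACGTCA was in Dusp1 and Btg2 (2.03% of genes), the AP-1 site TGANTCA in Bag3 alone (8.98%), and the CArG box, bound by serum response factor, in Egr2 and Zfp36 (1.81%). A match is a run of letters and not a shown binding site. The windows printed are those of Hspa1a (chr17:34972107-34972406, minus strand) and Hspa1b (chr17:34959189-34959488, minus strand), whose 300 bases have the same letter at 296 places, Hspe1 (chr1:55087898-55088197, plus strand), and Zfp36 (chr7:28379179-28379478, minus strand), the tested immediate early member without overlap between genotypes. Each runs 5′ to 3′ along the gene, and capitals mark the heat shock elements, or in Zfp36 the CArG box.
Hspa1a: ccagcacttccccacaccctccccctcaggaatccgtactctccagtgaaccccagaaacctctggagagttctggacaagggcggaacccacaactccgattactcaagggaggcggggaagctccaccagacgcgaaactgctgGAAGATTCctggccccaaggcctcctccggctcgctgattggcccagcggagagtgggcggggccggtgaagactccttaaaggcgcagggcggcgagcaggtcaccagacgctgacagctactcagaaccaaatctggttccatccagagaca
Hspa1b: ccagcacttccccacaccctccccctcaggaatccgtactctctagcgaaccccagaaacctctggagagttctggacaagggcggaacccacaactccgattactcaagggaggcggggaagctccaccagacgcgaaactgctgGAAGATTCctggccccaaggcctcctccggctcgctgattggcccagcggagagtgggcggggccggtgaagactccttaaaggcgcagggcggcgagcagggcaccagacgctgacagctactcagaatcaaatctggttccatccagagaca
Hspe1: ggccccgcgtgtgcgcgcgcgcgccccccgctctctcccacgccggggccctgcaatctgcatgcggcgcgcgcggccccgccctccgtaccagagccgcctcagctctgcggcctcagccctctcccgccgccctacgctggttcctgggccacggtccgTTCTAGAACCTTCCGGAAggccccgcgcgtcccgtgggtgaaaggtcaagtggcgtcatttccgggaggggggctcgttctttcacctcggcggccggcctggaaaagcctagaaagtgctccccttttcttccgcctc
Zfp36: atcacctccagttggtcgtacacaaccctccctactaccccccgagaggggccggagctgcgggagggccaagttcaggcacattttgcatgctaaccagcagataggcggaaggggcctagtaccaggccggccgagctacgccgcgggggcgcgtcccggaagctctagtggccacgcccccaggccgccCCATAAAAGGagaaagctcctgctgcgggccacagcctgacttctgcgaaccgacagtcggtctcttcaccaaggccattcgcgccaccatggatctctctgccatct

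The genotypes were compared with the mouse as the replicate (2 against 2), using limma on the mean log2 value of each mouse with Benjamini-Hochberg adjustment over 9257 genes. No gene passed an adjusted p of 0.05 (0%; 209 had an unadjusted p under 0.05, and edgeR called 8), and 0 of the 20 tested members did. All 12 tested heat shock members and 6 of 8 immediate early members had a positive difference (knockout minus wild type), with medians of 0.025 and 0.0098, against 53.9% positive and a median of 0.0013 over all genes tested. These directions depended on single mice, and Hspa1b was tested at all only because of its level in mouse 3. Without mouse 3, 6 of the 11 heat shock members still tested turned negative (Hspa1a, Hspa8, Hsp90ab1, Hspe1, Hspd1 and Cryab), as did 3 of 8 immediate early members (Jun, Nr4a1 and Btg2), while Dusp1 turned positive and 3181 of 9213 genes changed sign. Cryab differed by 0.071 with all mice and by -0.34 without mouse 3. The largest member difference in mean log2 was Jund, with -0.20 (95% interval -0.53 to 0.12; adjusted p = 1.00; lower in both knockout mice), and it was -0.16 without mouse 3 and -0.077 without mouse 1. On the ratio scale of edgeR, Zfp36 differed by 0.48 and Klf6 by 0.37, and of the 20 members only Zfp36 had an unadjusted p under 0.05 there. Hsp90aa1 differed by 0.19 (-0.25 to 0.63), with adjusted p = 1.00 and 4 of 4 batches higher in the knockout, but by 0.0029 without mouse 3. Klf6 differed by 0.09 (-0.06 to 0.24; adjusted p = 1.00; higher in 4 of 4 batches), and by 0.042 without mouse 1. An exact permutation of 2 mice against 2 cannot give a p under 0.3333.

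Fos and the other members below the detection limit entered that comparison when no filter was applied. Fos then differed by 0.09 (95% interval 0.0045 to 0.18), Fosl2 by 0.032 (0.025 to 0.038) and Klf4 by 0.035 (0.015 to 0.055), each higher in 4 of 4 knockout libraries. None passed adjustment over 18833 genes in limma, with adjusted p of 1.00, 0.672 and 1.00. Over Oligo2 to Oligo4 alone, 0 of 9232 genes passed in limma with the filter (0%; 133 had an unadjusted p under 0.05, and edgeR called 3), 0 of 20 members among them. Without the filter Fos differed there by 0.029 (0.024 to 0.034; adjusted p = 0.816; higher in 4 of 4 knockout libraries). The separation of the libraries is thus a description of 2 mice per genotype that no test across genes passed.

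RNA of other cell types was present at low levels beside these values. The microglia marker C1qa had 11.7, 6.38, 6.99 and 18.96 CPM in the wild type (hippocampus of mice 1 and 4, then cortex) and 0.431, 0.655, 0.0679 and 0 in the knockout (hippocampus of mice 3 and 6, then cortex; 0 allows up to 0.250). Tmem119 was at 0 in all 4 knockout libraries, and Trem2 in both of mouse 3. In the knockout cortex of mouse 6, Csf1r, Cx3cr1, C1qa, C1qb and C1qc were at 0 as well. The 4 erythrocyte markers, led by Hbb-bs, summed to 993.8, 31.6, 197.5 and 224.4 in the wild type and 877.7, 233.3, 215.2 and 82.3 in the knockout, highest in batch 3, and erythrocytes had been gated against but not removed during dissociation. The 4 neuron markers, led by Meg3 or Snap25, summed to 56.7, 18.4, 10.0 and 9.95 in the wild type and to 53.4, 60.3, 15.3 and 14.3 in the knockout, and the 5 endothelial markers, led by Ly6c1, to 4.73, 10.5, 21.1 and 25.5 and to 25.3, 25.9, 22.9 and 24.1. Endothelial RNA was thus lower in the wild-type hippocampus than in the other 6 libraries. The 4 progenitor markers, led by Gpr17, summed to 13.7, 12.3, 8.82 and 16.1 and to 26.0, 19.1, 13.6 and 6.91, higher in the knockout in both hippocampus pairs, and the 6 astrocyte markers, led by Slc1a2, to 178 at the least and 272 at the most with the genotypes overlapping. All of these but the microglia genes were above 0 in every library. The part of such RNA in the levels of Fos or any other member was not tested.

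The mouse pairs were compared in the same way, mice 1 and 3 against mice 4 and 6 with genotype in the model. In limma 690 of 9257 genes passed an adjusted p of 0.05 (7.45%), 367 of them higher in mice 1 and 3 (3.96%), and 1 of the 20 members, Hspa8, was among these. Hspa8 rose by 0.46 in mice 1 and 3 (95% interval 0.31 to 0.61; adjusted p = 0.0475), and was higher in 4 of 4 of their libraries than in any of the other 4. Klf6 came closest of the others, with -0.08 (95% interval -0.12 to -0.05; adjusted p = 0.0612; lower in mice 1 and 3 in both tissues of each genotype). Cryab differed by 0.65 (0.26 to 1.03; adjusted p = 0.0803; 4 of 4 libraries), Hsp90ab1 by 0.35 (adjusted p = 0.158) and Hsph1 by -0.17 (adjusted p = 0.170). The share of members called, 1 of 20, was close to that of all genes. edgeR called 1794 genes and 4 members. The call of Hspa8 was lost without the filter on low genes, in Oligo2 to Oligo4 alone, and, in analyses chosen after seeing the data, without the cortex library of mouse 3 or without batch 6, where Hspa8 differed by 0.45 and 0.49 and 0 and 1 genes were called in all. The oligodendrocyte markers Mag (0.28; adjusted p = 0.0454) and Cnp (0.21; adjusted p = 0.0437) were also higher in mice 1 and 3.

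By order alone, all 4 libraries of mice 1 and 3 lay above all 4 of mice 4 and 6 for 4 of 12 tested heat shock members (Hspa8, Hsp90ab1, Hspe1 and Cryab) and 1 of 8 tested immediate early members (Nr4a1), against 14.2% of all genes tested. They lay below for 2 (Hsph1 and Dnajb1) and 1 (Btg1), against 19.4%. Both libraries of mouse 3 were the highest of the 8 for 10 of the 12 heat shock members, all but Hsph1 and Dnajb1, and for 3 of the 8 immediate early members (Jun, Nr4a1 and Btg2), against 9.23% of all genes tested. Mouse 3 is 1 animal, so these members do not count as separate observations of it. Hspa1b reached the 5% of cells needed for testing only with mouse 3 included, so its place here depended on that limit.

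Inside batches the genotype difference of the heat shock members was not the same in both mouse pairs. The knockout was higher for 11 of 12 in batch 3 and for 11 of 12 in batch 4 (mice 1 and 3), with a median difference of 0.13 in each, but for 3 of 12 in batch 5 and 6 of 12 in batch 6 (mice 4 and 6), with medians of -0.018 and -0.00084. Of all genes tested, 51.3%, 56.4%, 40.2% and 63.3% were higher in the knockout in batches 3, 4, 5 and 6, so batches 5 and 6 also differed in the background. For 6 of the 12 (Hspa1a, Hsp90ab1, Hsph1, Dnajb1, Hspd1 and Cryab) and for 1 of 8 immediate early members (Jun), both batches of a mouse pair differed in the direction opposite to both batches of the other pair, against 12.9% of all genes tested. Cryab differed by 0.17 and 0.34 in batches 3 and 4 and by -0.13 and -0.09 in batches 5 and 6. As a share of the variation over the 8 library means, 96.0% for Hspa8 and 91.0% for Cryab lay between batches, and 0.198% and 1.09% between genotypes. The median was 62.3% between batches and 12.8% between genotypes over the 12 heat shock members, 47.7% and 15.7% over the 8 immediate early members, and 69.0% and 6.80% over all genes tested (batches take 3 of 7 degrees of freedom and genotypes 1).

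**Figure D4:**
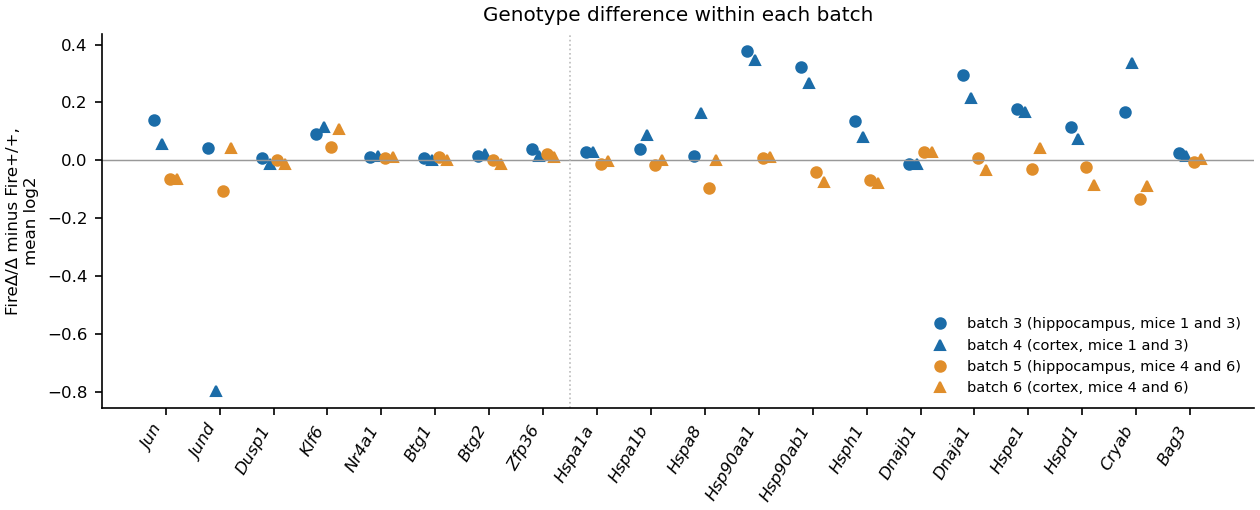
Knockout minus wild type in mean log2 value (vertical axis) inside each of the 4 batches for the 20 tested members, with immediate early genes left and heat shock genes right of the dotted line. Blue marks the batches of mice 1 and 3, orange those of mice 4 and 6, circles hippocampus and triangles cortex. Most heat shock members are above 0 in blue and near or below 0 in orange, as Hsp90ab1 with 0.32 and 0.27 against -0.04 and -0.07, and Jund is at -0.80 in batch 4.

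Fewer genes were called between tissues than between mouse pairs in the main fit. As a median over all genes tested, 7.34% of the variation lay between tissues, against 6.80% between genotypes. Each batch held a single tissue, so tissues were compared between batches. Hippocampus was compared with cortex over the 8 libraries with genotype in the model, and 0 of 9257 genes passed in limma (0%; 490 had an unadjusted p under 0.05, and edgeR called 0), so 0 of 20 members did. With the mouse number as a block, which pairs both tissues of an animal, 0 genes passed and 1450 had an unadjusted p under 0.05. Of the 20 members, 3 had an unadjusted p under 0.05 in limma with that block and 0 without it. The member differences (hippocampus minus cortex) ran from -0.05 for Cryab (95% interval -0.70 to 0.60) to 0.10 for Hsp90ab1 (-0.28 to 0.48). These intervals are from the fit without the block, and Hsp90ab1 was higher in the hippocampus of every mouse. Whether the genotype difference itself changed with tissue was asked as an interaction, in which 0 of 9257 genes passed in limma (0%; 574 had an unadjusted p under 0.05; no second tool was run). Among members, Dnaja1 (0.06), Cryab (-0.11) and Hspd1 (0.052) were the 3 with an unadjusted p under 0.05, with adjusted p of 0.792, 0.799 and 0.799. For Fos, without the filter, the interaction was 0.10 (-0.05 to 0.24; adjusted p = 0.911). Fos was higher in the hippocampus of every mouse, by a mean of 0.10 in the knockout and 0.0037 in the wild type.

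**Figure D5:**
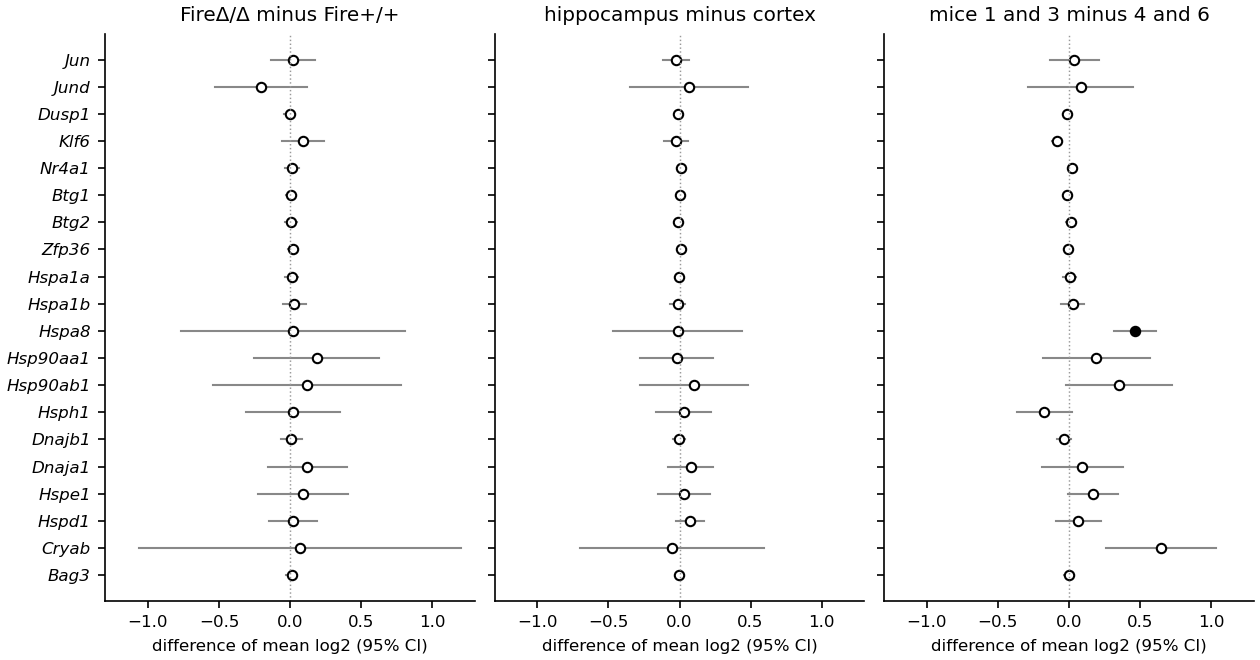
Difference in mean log2 value with its 95% interval (lines) for the 20 tested members in 3 comparisons: knockout minus wild type, hippocampus minus cortex, and mice 1 and 3 minus mice 4 and 6. A filled symbol marks an adjusted p under 0.05, reached by Hspa8 in the comparison of mouse pairs (0.46), while the intervals for genotype hold 0 for all 20 and reach from -1.06 to 1.21 for Cryab.

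Other genes of the same kinds were counted from lists. Of 40 further immediate early and stress genes, 38 were in the matrix (not Npas4 or Cxcl1) and 17 were tested, and 0 passed the genotype comparison in limma (3 had an unadjusted p under 0.05). The highest differences were Sgk1, a kinase induced by stress hormones (0.41, adjusted p = 1.00), and Cebpd, a transcription factor of the acute phase response (0.18, adjusted p = 0.767), and the lowest were Arc (-0.05) and Tob1 (-0.04). In edgeR Cebpd was called, with a log2 ratio of 3.05 (adjusted p = 0.0124) and 1.86 in Oligo2 to Oligo4 (adjusted p = 0.0318). Of 41 further chaperones and heat shock factors, 37 were tested, with 0 called for genotype in limma (1 had an unadjusted p under 0.05) and 2 for mouse pair, both higher in mice 1 and 3: Dnajb2 (0.085, adjusted p = 0.0466) and Hsbp1 (0.22, adjusted p = 0.0499). In that comparison 27 of the 37 had a positive difference, with a median of 0.044, against 9 of 12 and 0.079 for the tested heat shock members and 43.7% and -0.0044 for all genes tested. The 2 called were a smaller share of the 37 than the 7.45% of all genes called. Between wild-type mice alone, mouse 1 was above mouse 4 for 25 of the 37 further chaperones and for 5 of the 12 heat shock members (Hspa8, Hsp90aa1, Hsp90ab1, Hspe1 and Cryab), against 43.5% of all genes tested. Between knockout mice, mouse 3 was above mouse 6 for 29 and 10, against 44.7%. The 9 of 12 among members thus rested largely on mouse 3, and mouse, batch and age cannot be told apart.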

How the data were processed

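The authors aligned the reads, counted UMIs, filtered cells, kept oligodendrocytes and named the clusters, and the matrix and cell table were used as deposited. The count values were made by the authors as UMIs per gene and cell, and the deposited table gives each cell's total. The log2 values were deposited by the authors as log2 of the size-factor-scaled count plus 1. The percent values in the cell table, the mitochondrial share, were computed by the authors before deposit. The size factor, a ratio of a cell's depth to the mean, was applied by the authors before deposit, and dividing it out gave back whole UMIs, within 0.001, for all 42420937 values above 0, with library totals from these. Members and lists were chosen with earlier results of these data known, members by name. Levels are means of deposited log2 values, or CPM. Mouse means (2 against 2) were fitted with limma 3.58.1 and Benjamini-Hochberg adjustment for genes found in 5% of cells or more, with edgeR 4.0.16 on summed UMIs as the alternative, in R 4.3.3. Python 3.11.15 with numpy 2.4.6, pandas 2.3.3, scipy 1.17.1 and matplotlib 3.10.9 did the rest. The fits were tested on simulated data. Over 9257 genes both tissues of a mouse deviated alike from the other mouse of its genotype (correlations of 0.84 in the wild type and 0.85 in the knockout). The mice of a genotype also differed in batch and age, so these correlations cannot show that both tissues came from the same animal. Alternatives tried were other scales, filters of 0% and 10%, centring, blocks, subsets of libraries and Oligo2 to Oligo4 alone. Promoter windows are RefSeq, GRCm38.p6. Some marker genes, and sums that hold them, are not reported here.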

Additional observations from a re-analysis of the deposited data

Results flagged for a closer look

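Of 72 groups of 4 libraries, 2 held a library far from the other 3, where chance alone would give about 1 in 20. Egr2 had a mean log2 of 0.00178 in the wild-type hippocampus of mouse 4, from 3 UMIs. Atf3 had 0.0172 in the knockout hippocampus of mouse 3. The knockout minus wild-type difference had opposite directions in the mouse pairs for 7 members, where the mean of mice 1 and 3 less that of mice 4 and 6 was 0.16 for Jun, 0.036 for Hspa1a, 0.35 for Hsp90ab1, 0.18 for Hsph1, -0.040 for Dnajb1, 0.15 for Hspd1 and 0.36 for Cryab. Between tissues the same was seen for Dusp1, by 0.018 (hippocampus less cortex). The differences between mouse pairs were not tested. That of Dusp1 between tissues is the interaction fitted in limma (95% interval -0.017 to 0.052; adjusted p = 0.858).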

How the results depend on the processing

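With 2 mice per genotype the fit left 2 residual degrees of freedom before limma pooled variance over genes. In simulated data it recovered 79% of differences of 0.5 and 90% of differences of 1, sizes above most seen here, with 10 false calls. Noise was drawn there independently for each gene and mouse, so variation shared between genes was left out. In counts simulated with the same spread setting for every gene, edgeR recovered 48% and 99%, with 13 false calls. In the real data the lowest adjusted p for genotype in limma was 0.43, for C4b, to which edgeR gave a log2 ratio of 5.54. The median standard deviation over the libraries was 0.11 for tested heat shock members and 0.024 for all genes tested. The recovery over all genes therefore need not hold for those members. Batch, mouse pair and age changed together, and the clusters were drawn from the same cells. For genotype, 1 of 8 and 1 of 12 tested immediate early and heat shock members changed sign without mouse 1, 4 of 8 and 6 of 11 without mouse 3, 1 of 8 and 2 of 12 without mouse 4, and 1 of 8 and 2 of 12 without mouse 6. Over all genes tested, 2097 of 9235, 3181 of 9213, 3014 of 9213 and 2057 of 9193 changed sign, in the same order. For genotype over all oligodendrocytes, 0 genes passed, against 2 with log2 of the mean scaled value (Serpina3n and C4b), 1 without a filter (9330117O12Rik), 8 in edgeR and 4 from library means with batch as a block (Pak7, Tmem80, Itgb4 and Lamp2). In Oligo2 to Oligo4 the counts were 0 against 2, 1, 3 (C1qb, Cebpd and C4b in edgeR) and 3 (Gsn, Tmem80 and Tmsb4x). The fits on library means took both tissues of a mouse as separate replicates, so they count more replicates than mice. With the mouse pair as the replicate block 0 genes passed, with the pairing resting on shared batches. Members passed in none of these. With a mouse left out, 1 genotype held 1 mouse and the other alone gave the spread, so only differences are given. Over those 4 fits the difference of Klf6 ran from 0.042 to 0.14, of Hsp90aa1 from 0.0029 to 0.37 and of Zfp36 from 0.016 to 0.027. In Oligo2 to Oligo4 the same fits ran from 0.011 to 0.11 for Klf6 and from 0.0033 to 0.39 for Hsp90aa1. On other scales, with all mice and all clusters, Klf6 differed by 0.31 with log2 of the mean scaled value and by 0.37 in edgeR, against 0.09. In the same order Zfp36 differed by 0.19 and 0.48, against 0.021, and Hsp90aa1 by 0.19 and 0.20, against 0.19. Tissue kept 0 calls in every setting, with each mouse left out too and with the mouse number as the replicate block. The interaction kept 0 calls in every setting with all mice.

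For mouse pair, 690 genes passed, against 1915 with log2 of the mean scaled value, 0 without a filter, 1794 in edgeR, 3294 from library means with genotype and tissue, 0 in Oligo2 to Oligo4, 902 for genes found in 10% of cells or more and 718 after centring on the median gene. The counts were 0 without the cortex library of mouse 3 and 1 without batch 6 (AY036118), both chosen after seeing the data. Members past the threshold numbered 1, against 4, 0, 4, 7, 0, 1 and 1 in the same order, then 0 and 0. Where Hspa8 no longer passed, its difference was 0.46 without a filter, 0.46 in Oligo2 to Oligo4, 0.45 without the cortex of mouse 3 and 0.49 without batch 6. Cryab passed at 0.67, 0.68 and 0.65 in the other scale, edgeR and library means. The library means again took both tissues of a mouse as separate replicates, so those calls rest on more replicates than mice. Leaving a mouse out was not run for mouse pair, as 0 residual degrees of freedom would remain. The median share of cells with a member was 3.27% thinned and 6.90% with all UMIs, and the knockout minus wild-type share was 4.83 and 7.19 points for Fos, 2.96 and 4.77 for Junb, 1.82 and 3.73 for Klf4, 1.61 and 3.51 for Hspa1b and 0.425 and 1.28 for Dnajb1. Thinning takes UMIs away from each cell, so a share after thinning cannot exceed the share with all UMIs. The cause of the other shifts was not tested.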

Other observations

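Matrix and cell table gave the same total of UMIs in 11264 of 12581 cells, and the largest gap was 147 UMIs.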
